A study of Homo sapiens with 16 samples.

Results

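The mRNAs of the Mediator complex and of RNA polymerase II were followed through a study of RNA bound by tagged proteins in cells that the labels call UM-SCC-1, a long-used squamous carcinoma line of the head and neck. Members were the protein-coding entries of both deposited tables whose name is MED with a number or POLR2 with a subunit letter, which gave 46 entries with 45 names out of 16324 listed genes, of which 13210 are protein-coding. Of these entries, 30 belong to Mediator and 16 to RNA polymerase II, and POLR2J3 is listed under 2 identifiers. All 46 passed whatever low-count filter the authors used, so subunit genes outside the tables have no value here.

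RNA polymerase II transcribes all mRNA genes. Its largest subunits form the catalytic core, smaller subunits hold that core together, and some of the small ones also serve RNA polymerases I and III. Mediator carries signals from DNA-bound activators to the polymerase: its head and middle modules contact the polymerase, its tail binds activators, and a detachable kinase module, with a cyclin-dependent kinase, cyclin C, MED12 and MED13, regulates the rest.

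In the study, lentivirus gave the cells ALKBH5 (a demethylase that acts on the RNA mark m6A) or RBM33 (a protein that binds RNA), both fused to Strep, a peptide tag held by StrepTactin beads, or the tagged empty vector (Vec), and all cells were selected with puromycin. RNA from the StrepTactin pull-down (RIP-seq) and input RNA were sequenced in 16 libraries: 3 pull-down and 3 input libraries for ALKBH5, 2 and 2 for RBM33, and 3 and 3 for Vec. Both deposited tables carry the label siCtrl, taken as a control siRNA although no title names one. The tables hold the authors' own comparison for each bait, giving each gene a log2 fold change with its adjusted p-value and its abundance as average log2 CPM (a depth-scaled read count) and no value per library, so depth is unknown and no spread stands beside the values. Which groups were compared, which way the ratio runs and whether the tables share libraries are not stated, so values are called positive or negative as deposited, and neither sign is read as bound or depleted. The bait mRNAs were among the abundant ones in their own tables: ALKBH5 mRNA had an average log2 CPM of 12.30 in the authors' deposited ALKBH5 table and 6.68 in the RBM33 one, and RBM33 mRNA had 7.81 and 13.90. Of 13 squamous epithelial markers, 9, among them KRT5, KRT14 and TP63, were not among the listed genes. EGFR was listed at an average log2 CPM of 4.61 and CDH1 at 0.60 in the authors' deposited ALKBH5 table. Of 7 markers of embryonic kidney lines, 5 were listed in the authors' deposited ALKBH5 table, with an average log2 CPM of 8.10 for NEFL, 7.72 for NEFM, 5.78 for LIN28B, 2.81 for WT1 and 1.83 for PAX2. None of 5 immune and 3 endothelial markers was listed, and 3 of 7 fibroblast markers were. The cell type is therefore given only as labelled, and in such bulk samples fewer cells with an RNA and less RNA per cell cannot be told apart.

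The start regions of 5 members are shown because they belong to the largest polymerase subunit and to the members with the highest and the lowest value of each complex in the authors' deposited ALKBH5 table, among the 32 members with a start region in the RefSeq table (GRCh38.p14). Each runs 5′ to 3′ on the gene's strand for 150 bases, with 120 before the start site and 30 after it. Capitals mark the GC box GGGCGG and the CCAAT box on either strand. GCATGCGC, the core of the NRF1 motif, on either strand and GGACT, a core of the m6A consensus, on the sense strand of the 30 transcribed bases were also searched, and neither was in these 5 windows.
POLR2A (chr17:7484246-7484395, + strand): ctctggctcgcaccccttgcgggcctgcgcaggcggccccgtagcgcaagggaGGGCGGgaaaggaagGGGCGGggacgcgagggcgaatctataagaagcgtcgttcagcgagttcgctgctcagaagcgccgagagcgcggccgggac
POLR2J2 (chr7:102671634-102671783, - strand): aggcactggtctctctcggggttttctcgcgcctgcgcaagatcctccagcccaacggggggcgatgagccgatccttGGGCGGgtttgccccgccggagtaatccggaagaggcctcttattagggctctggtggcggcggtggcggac
POLR2L (chr11:842500-842649, - strand): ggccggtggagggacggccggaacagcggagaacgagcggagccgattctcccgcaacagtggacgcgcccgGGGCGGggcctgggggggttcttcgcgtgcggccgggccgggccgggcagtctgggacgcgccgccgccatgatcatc
MED12L (chr3:151085544-151085693, + strand): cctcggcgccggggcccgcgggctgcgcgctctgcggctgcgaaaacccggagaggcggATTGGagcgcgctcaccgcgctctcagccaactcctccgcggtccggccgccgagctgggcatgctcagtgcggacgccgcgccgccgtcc
MED10 (chr5:6378518-6378667, - strand): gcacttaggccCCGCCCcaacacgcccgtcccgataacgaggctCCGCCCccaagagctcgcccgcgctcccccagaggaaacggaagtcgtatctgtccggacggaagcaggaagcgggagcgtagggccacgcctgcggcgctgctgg
The GC box was in 20 of the 32 windows, 62.5%, against 36.1% of the 35116 windows of the RefSeq table. These sets are unlike: members have 1 window each, and the RefSeq table is taken with all its start sites. Median GC content was 66.3% in the member windows and 60% in that table. Among matched members, the GC box was in 7 of 9 called positive by both deposited tables of the authors and in 7 of 10 called negative by both. The CCAAT box was in 7 of 32 member windows, 21.9%, against 22.4% of the RefSeq table. GCATGCGC and GGACT were each in 1 of 32, 3.12%, against 2.26% and 2.70% of that table. GC box counts were thus similar among matched members called positive and those called negative by both tables. No start region was matched for MED6, MED8, MED13, MED14, MED21, MED22, MED28, MED30, POLR2G, POLR2I, POLR2J, POLR2J3 and POLR2K.

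In both tables the subunits split within each complex. The 2 large polymerase subunits, MED12, MED13 and their paralogues, and the POLR2J copies (POLR2J2 and POLR2J3) were called positive in both. Most smaller polymerase subunits were called negative in both. So were MED8 of the Mediator head, the linking subunits MED29 and MED30, and MED4, MED10 and MED19 of the middle module. At an adjusted p under 0.05 in the authors' deposited ALKBH5 table, 15 of 46 members were positive and 19 negative, and 12 were not called. Background shares in that table were 30.5% positive and 29.1% negative over all genes, and 27.5% and 33.3% over protein-coding genes. In the authors' deposited RBM33 table, 12 members were positive, 16 negative and 18 not called, against 24% and 27% of all genes and 21.5% and 31.2% of protein-coding genes. As one list the subunits therefore lay near the background, a few members above it in each direction. Their median log2 fold change was -0.26 in the authors' deposited ALKBH5 table, against -0.08 for protein-coding genes, and -0.24 in the RBM33 one, against -0.13. Both calls were positive for 12 members and negative for 15 in the authors' deposited tables, against 19.1% and 27.6% of protein-coding genes (21.5% and 23.7% of all genes). No member was called with opposite signs, but the share of all genes with such calls was not computed. Whether the tables share libraries is not known.

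All 16 polymerase entries were called in the authors' deposited ALKBH5 table, 5 positive and 11 negative, and 14 in the RBM33 one, 5 and 9. The 5 positive entries include 3 POLR2J copies: without the POLR2J family, 2 positive and 10 negative of 12 were left in the authors' deposited ALKBH5 table, and 2 and 8 in the RBM33 one. Without members that overlap on the same strand, 2 positive and 8 negative of 10 were left in the authors' deposited ALKBH5 table, and 2 and 7 in the RBM33 one. Of 30 Mediator members, 10 were positive, 8 negative and 12 not called in the authors' deposited ALKBH5 table, and 7, 7 and 16 in the RBM33 one, near the background shares of protein-coding genes given above. The median log2 fold change was -0.01 for Mediator and -0.66 for the polymerase in the authors' deposited ALKBH5 table, and -0.01 and -0.70 in the RBM33 one. These are counts over one list each, and the difference between the complexes was not tested.

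**Figure D1:**
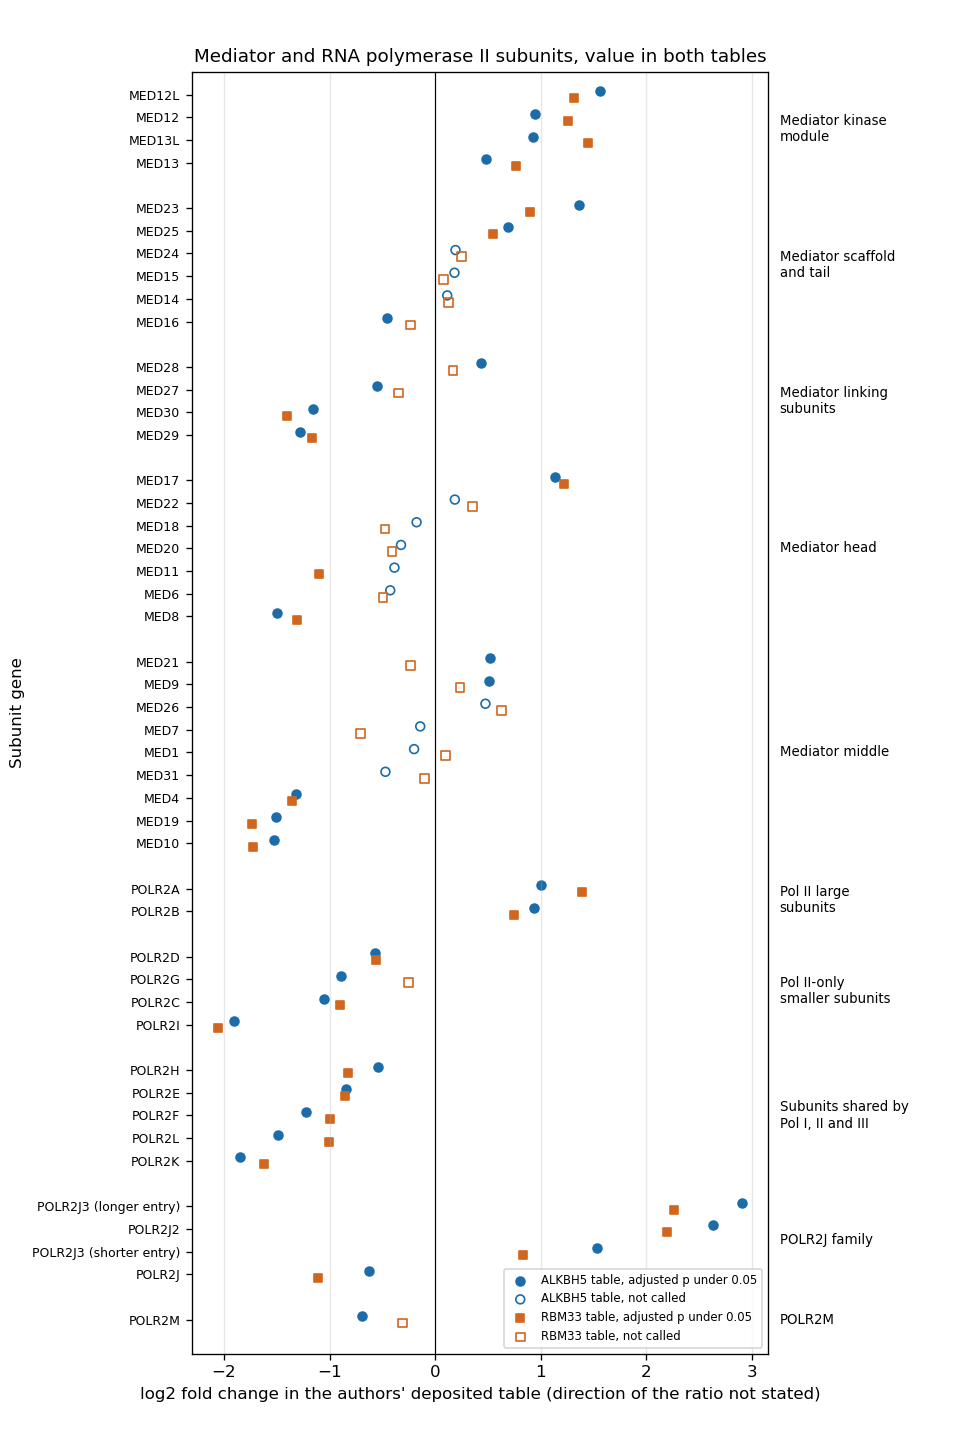
log2 fold change (x axis, as deposited) of each of the 46 subunit entries, grouped by module down the page, with blue circles for the ALKBH5 table and orange squares for the RBM33 table. Filled symbols have an adjusted p under 0.05. MED12, MED12L, MED13, MED13L, POLR2A, POLR2B and the POLR2J copies lie right of 0 in both tables. All 10 smaller polymerase subunits from POLR2C to POLR2L lie left of it.

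POLR2A (ENSG00000181222, chromosome 17, 7484366 to 7514616, hg38) encodes the largest subunit, which holds the active site and carries the repeated heptads of the C-terminal domain. It had a log2 fold change of 1.00 (adjusted p = 1.65e-05) in the authors' deposited ALKBH5 table and 1.39 (adjusted p = 7.17e-05) in the RBM33 one. Its average log2 CPM of 8.05 and 8.09 was the highest of all members in the authors' deposited tables, and it ranked 436 and 402 among the 16324 genes. POLR2B (ENSG00000047315, chromosome 4, 56977722 to 57031158), the second largest subunit and the other side of the active centre, had 0.93 (adjusted p = 7.23e-05) and 0.74 (adjusted p = 0.00203) in the authors' deposited tables for ALKBH5 and RBM33, at an average log2 CPM of 5.71 and 5.90. Both large subunits were thus positive in both comparisons.

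The smaller subunits lay on the other side of 0. Among protein-coding genes, 33.3% were called negative for ALKBH5 and 31.2% for RBM33. Of the 10 members from POLR2C to POLR2L, leaving out the POLR2J copies, 10 were negative in the authors' deposited ALKBH5 table (median log2 fold change -0.97) and 9 in the RBM33 one (median -0.95). POLR2I (chromosome 19, 36113709 to 36115213), a small zinc-binding subunit at the edge of the polymerase that matters for accuracy, had the lowest value of all members. It stood at -1.91 (adjusted p = 2.98e-06) and -2.06 (adjusted p = 4.16e-05) in the authors' deposited tables for ALKBH5 and RBM33, with an average log2 CPM of 4.95 and 5.50. POLR2C, which pairs with POLR2J to start assembly of the enzyme, had -1.05 (adjusted p = 3.35e-05) and -0.91 (adjusted p = 0.00425) in the authors' deposited tables, at an average log2 CPM of 5.53 and 5.62. The stalk that reaches out from the core is made of POLR2D and POLR2G. POLR2D had -0.57 and -0.56 in the authors' deposited tables, called in both. POLR2G had -0.89 (adjusted p = 0.00241) in the authors' deposited ALKBH5 table and -0.25 (adjusted p = 0.393) in the RBM33 one, the one smaller subunit without a call there.

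The 5 subunits that polymerases I, II and III share were called negative in both tables, against 33.3% (ALKBH5) and 31.2% (RBM33) of protein-coding genes. Their values against genes of like listed length are given below. POLR2K had -1.85 (adjusted p = 0.000109) and -1.62 (adjusted p = 0.000373) in the authors' deposited tables for ALKBH5 and RBM33, with an average log2 CPM of 3.36 and 4.05. POLR2L had -1.49 (adjusted p = 1.64e-06) and -1.003 (adjusted p = 0.00846) in the authors' deposited tables, at an average log2 CPM of 4.87 and 4.69. Both encode small zinc-binding proteins of the core. POLR2F, a subunit needed for assembly, had -1.23 (adjusted p = 5.96e-05) and -0.99 (adjusted p = 0.00203) in the authors' deposited tables, at an average log2 CPM of 5.34 and 4.86. POLR2E stood at -0.84 and -0.86 and POLR2H at -0.54 and -0.83 in the authors' deposited tables, all called. POLR2M, a protein that binds the polymerase and makes its activity depend on Mediator, had -0.70 (adjusted p = 0.00854) in the authors' deposited ALKBH5 table and -0.31 (adjusted p = 0.288) in the RBM33 one.

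The POLR2J family on chromosome 7 spanned both signs. POLR2J (102473118 to 102478907), the gene of the standard subunit, was negative at -0.62 (adjusted p = 0.000575) and -1.11 (adjusted p = 0.000131) in the authors' deposited tables for ALKBH5 and RBM33, at an average log2 CPM of 6.04 and 6.10. POLR2J2 and 1 of the POLR2J3 entries had the highest values of all members in both tables. POLR2J2 (ENSG00000228049, 102665368 to 102671629), whose start region is printed above, had 2.63 (adjusted p = 3.85e-07) and 2.20 (adjusted p = 3.41e-05) in the authors' deposited tables, at an average log2 CPM of 4.07 and 4.04. POLR2J3 is listed under overlapping identifiers on the same strand. The entry with the longer listed length of 7195 bases (ENSG00000285437, 102562133 to 102572583) stood at 2.90 (adjusted p = 1.36e-08) and 2.26 (adjusted p = 1.32e-05) in the authors' deposited tables, at an average log2 CPM of 5.93 and 5.53. The entry with 3190 bases (ENSG00000168255, 102537918 to 102572653) had 1.53 (adjusted p = 1.49e-06) and 0.83 (adjusted p = 0.00409) in the authors' deposited tables, at an average log2 CPM of 5.21 and 4.98. These copies are duplicates of one gene, and how the authors' counting treated reads that match several copies or several overlapping entries is not stated, so the split of reads among them is uncertain. The POLR2J3 entry of 3190 bases also overlaps UPK3BL2 on the same strand. UPK3BL2 had 1.49 and 0.68 in the authors' deposited tables for ALKBH5 and RBM33, with no call for RBM33. AC105052.3, which overlaps POLR2J2 on its strand, had 0.93 and 0.52 in the authors' deposited tables, also with no call for RBM33. RefSeq lists read-through transcripts that join POLR2J3 to UPK3BL2 and POLR2J2 to UPK3BL1. Their part in these values was not tested.

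Among Mediator subunits, MED12, MED12L, MED13 and MED13L of the kinase module had positive calls in both of the authors' deposited tables. Their median log2 fold changes were 0.94 for ALKBH5 and 1.29 for RBM33. MED12 (chromosome X, 71118556 to 71142454), which activates the kinase, had a log2 fold change of 0.94 (adjusted p = 5.23e-05) and 1.26 (adjusted p = 0.000148) in the authors' deposited tables for ALKBH5 and RBM33, at an average log2 CPM of 5.96 and 5.91. Its paralogue MED12L had 1.56 (adjusted p = 6.4e-07) and 1.32 (adjusted p = 4.93e-05) in the authors' deposited tables, at 5.54 and 5.51. MED13, which links the kinase module to the core, had 0.48 (adjusted p = 0.00321) and 0.76 (adjusted p = 0.00122) in the authors' deposited tables. Its paralogue MED13L had 0.93 (adjusted p = 1.83e-05) and 1.44 (adjusted p = 3.13e-05) in the authors' deposited tables, at an average log2 CPM of 6.39 and 6.59. In both tables MED12L stood above MED12 and MED13L above MED13, differences that were not tested. For RBM33, MED12L and MED12 were close, at 1.32 and 1.26, and their order was reversed against genes of like listed length (below). AC018628.1, a transcript of type TEC on the same strand inside MED13, had 2.87 and 2.66 in the authors' deposited tables, and its part in the MED13 value was not tested. The module's kinases and cyclin were split in sign. CCNC, cyclin C, was negative at -0.97 (adjusted p = 0.000376) and -1.07 (adjusted p = 0.000883), and the kinase CDK8 at -0.79 (adjusted p = 0.000895) and -0.97 (adjusted p = 0.00312), in the authors' deposited tables for ALKBH5 and RBM33. The alternative kinase CDK19 had 0.67 (adjusted p = 0.134) and 0.86 (adjusted p = 0.0398) in the authors' deposited tables, at low abundance (average log2 CPM 2.68 and 3.01).

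The scaffold and tail subunits numbered 6, with 2 positive and 1 negative in the authors' deposited ALKBH5 table and 2 and 0 in the RBM33 one. MED23, a tail subunit that receives signals from growth factor pathways, had 1.36 (adjusted p = 1.29e-05) and 0.90 (adjusted p = 0.00181) in the authors' deposited tables, at an average log2 CPM of 5.14 and 5.28. MED25, the target of the viral activator VP16, had 0.69 (adjusted p = 0.000969) and 0.55 (adjusted p = 0.0165) in the authors' deposited tables. An antisense partner, PTOV1-AS1, overlaps MED25 on the other strand and had 2.94 and 1.90 in the authors' deposited tables for ALKBH5 and RBM33. The strand setting of the counting is not stated, so reads of the partners may be mixed. MED14, the scaffold that joins the modules, had 0.11 and 0.12, MED15 0.18 and 0.08 and MED24 0.19 and 0.25 in the authors' deposited tables, none called. MED16 had -0.46 (adjusted p = 0.03) in the authors' deposited ALKBH5 table and -0.23 (adjusted p = 0.265) in the RBM33 one.

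The head module, which contacts the polymerase, has 7 members here, of which 1 was positive and 1 negative in the authors' deposited ALKBH5 table and 1 and 2 in the RBM33 one. MED17, the central head subunit, was the positive one at 1.14 (adjusted p = 0.00101) and 1.22 (adjusted p = 0.00409) in the authors' deposited tables, at an average log2 CPM of 3.55 and 3.43. It overlaps AP001273.2 on the same strand, which was not called in the authors' deposited tables at 0.40 and 0.58, and TAF1D on the other strand. MED8 had -1.50 (adjusted p = 0.000339) and -1.31 (adjusted p = 4.78e-05) in the authors' deposited tables, at an average log2 CPM of 5.67 and 5.78. MED11 had -0.39 (adjusted p = 0.173) in the authors' deposited ALKBH5 table and -1.10 (adjusted p = 0.0306) in the RBM33 one, the only member called for RBM33 and not for ALKBH5. MED6, MED18, MED20 and MED22 were called in neither, with values from -0.43 to 0.19 in the authors' deposited ALKBH5 table and from -0.49 to 0.35 in the RBM33 one. The subunits MED27 to MED30 link head and tail. MED29 had -1.28 (adjusted p = 6.69e-06) and -1.17 (adjusted p = 8.1e-05) and MED30 -1.16 (adjusted p = 0.000183) and -1.40 (adjusted p = 0.000639) in the authors' deposited tables, at an average log2 CPM of 6.08 and 6.25 for MED29 and 3.72 and 4.08 for MED30. MED27 (-0.55) and MED28 (0.43) were called in the authors' deposited ALKBH5 table and stood at -0.35 and 0.17, not called, in the RBM33 one.

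In the middle module, 3 of 9 members were negative in both tables. MED10 had -1.52 (adjusted p = 7.01e-05) and -1.72 (adjusted p = 9.27e-05) in the authors' deposited tables for ALKBH5 and RBM33, at an average log2 CPM of 3.82 and 4.54. MED19, which contributes to contact with the polymerase, had -1.51 (adjusted p = 3.26e-06) and -1.74 (adjusted p = 0.000135) in the authors' deposited tables, at 5.04 and 4.65. MED4 had -1.32 (adjusted p = 1.11e-05) and -1.36 (adjusted p = 8.1e-05) in the authors' deposited tables, at 5.30 and 5.54. For RBM33, these members and MED30 had the lowest values of Mediator. MED9 (0.51) and MED21 (0.52) were called positive in the authors' deposited ALKBH5 table and had 0.23 and -0.24, not called, in the RBM33 one. MED1, the subunit that binds nuclear receptors, had -0.20 (adjusted p = 0.148) and 0.10 (adjusted p = 0.59), and MED26, which recruits elongation factors, 0.48 (adjusted p = 0.0776) and 0.63 (adjusted p = 0.105) in the authors' deposited tables. MED7 and MED31 were called in neither of the authors' deposited tables, and MED31 had the lowest abundance of all members (average log2 CPM 1.51 and 1.82).

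The comparisons gave close values for most members. The difference between the authors' deposited tables (log2 fold change for ALKBH5 minus that for RBM33) had a median of 0.03 over the 46 members and ran from -0.64 for POLR2G to 0.75 for MED21. It was within 0.5 log2 units for 39 of 46 members, 84.8%, against 76.6% of protein-coding genes. Besides MED21 and POLR2G, the entries beyond that size were MED11 (0.71), both of POLR2J3 (0.70 and 0.64), MED7 (0.56) and MED13L (-0.51). Without values per library no difference between baits was tested. The median average log2 CPM of members was 5.18 (ALKBH5) and 5.13 (RBM33), against 4.43 and 4.46 for protein-coding genes. The shares within 0.5 log2 units were not matched for abundance. Whether the tables share libraries is not known.

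Longer genes tended to have higher values among the members, by the length the tables list, which need not be that of 1 mRNA. Positive members in the authors' deposited ALKBH5 table had a median listed length of 7426 bases and negative ones 2704. In the authors' deposited RBM33 table these were 7554.5 and 2233.5. Across the 46 members the Spearman correlation of log2 fold change with listed length was 0.64 in the authors' deposited ALKBH5 table and 0.73 in the RBM33 one, against 0.41 and 0.45 over the 13210 protein-coding genes. Members of one table share its libraries and entries of POLR2J3 overlap, so these are descriptions. Within Mediator it was 0.76 and 0.86 over 30 members, and within the polymerase 0.50 and 0.60 over 16, in the authors' deposited tables. The correlation with average log2 CPM was 0.19 and 0.18 over members, against -0.27 and -0.27 over protein-coding genes, in the authors' deposited tables.

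**Figure D2:**
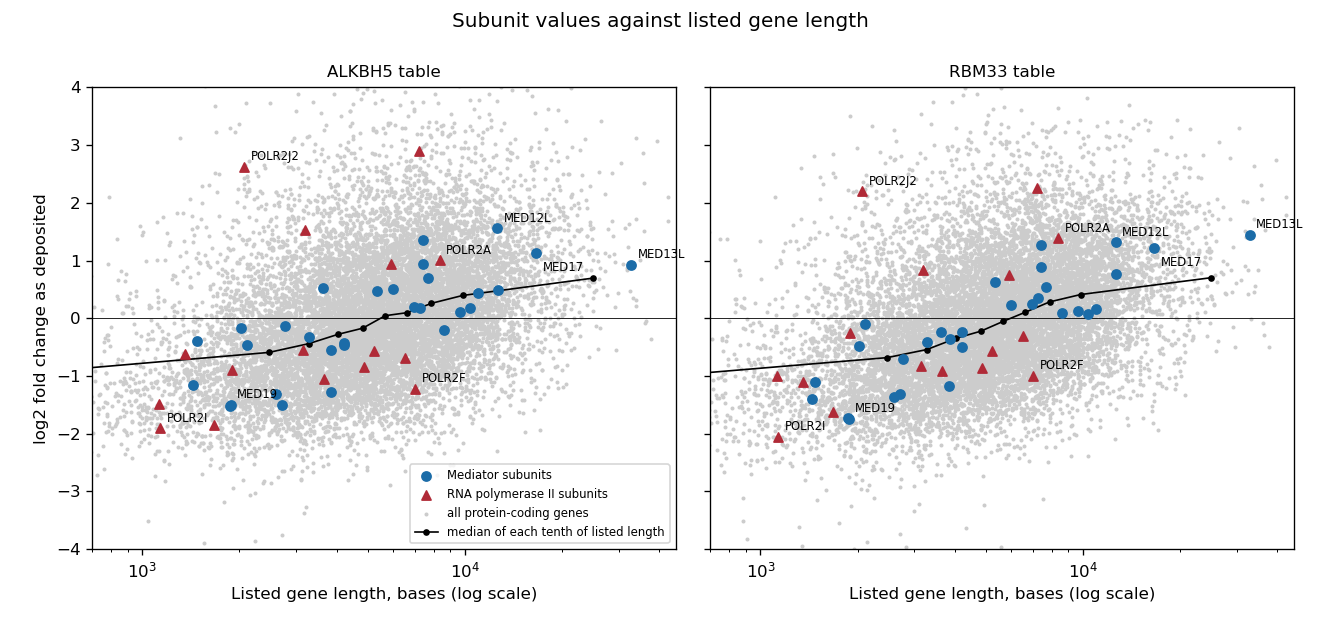
log2 fold change (y axis, as deposited) against listed gene length in bases (x axis, log scale) in the ALKBH5 table, left, and the RBM33 table, right. Blue circles are Mediator subunits, red triangles RNA polymerase II subunits, grey points protein-coding genes (185 and 161 lie outside the axes) and the black line joins the medians of 10 bins of listed length. Members lie on both sides of the line, many of them away from it. POLR2J2 lies far above it in both panels, and both POLR2J3 entries are also above it.

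Protein-coding genes were sorted into 10 equal bins by listed length. Against genes of the same bin, the members as a list were centred. The median difference from that bin's median was -0.02 in the authors' deposited ALKBH5 table and 0.03 in the RBM33 one, with 23 members above and 23 below in each. Single members stood apart from genes of like length. POLR2J2, among the shortest bin (51 to 2089 bases), was 3.64 and 3.29 above its median in the authors' deposited tables, and 99.2% and 98.9% of that bin had lower values. The POLR2J3 entry of 7195 bases was 2.64 and 1.98 above the median of its bin in the authors' deposited tables. The entry of 3190 bases was 1.97 and 1.38 above. POLR2A was 0.74 and 1.10 above, and POLR2B 0.89 and 0.80 above, the medians of their bins in the authors' deposited tables. MED12 (0.69 and 0.98), MED12L (0.86 and 0.62), MED13L (0.23 and 0.74) and MED23 (1.10 and 0.61) were also above. POLR2F, with a listed length of 7008 bases, was the lowest member on this scale at -1.33 and -1.10 in the authors' deposited tables, and 6.28% and 10.5% of its bin had lower values. POLR2J was near the median of its bin, at 0.39 and -0.01 in the authors' deposited tables. MED13, at -0.21 and 0.06, was near the median of the longest bin. MED29 (-0.999 and -0.825), MED8 (-0.90 and -0.62), MED4 (-0.72 and -0.68) and POLR2I (-0.89 and -0.96) were below genes of like length in the authors' deposited tables. The 5 shared polymerase subunits were below in 5 of 5 cases for ALKBH5 and in 4 of 5 for RBM33, where POLR2L was 0.09 above, in the authors' deposited tables.

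Listed length need not be that of 1 mRNA, so values per kilobase of it compare genes only roughly. On this scale POLR2J had the highest average abundance of all members in both of the authors' deposited tables (log2 CPM per kilobase of 5.61 and 5.66). POLR2A followed for ALKBH5 at 4.99, ahead of POLR2I (4.77), POLR2L (4.70) and POLR2E (4.57). For RBM33, POLR2I had 5.32 and POLR2A 5.03 in the authors' deposited table. MED8 (4.24 and 4.35) led Mediator, and MED17, with a listed length of 16610 bases, was lowest of all members at -0.51 and -0.63 in the authors' deposited tables. Abundance here is an average over the libraries of each fit, which are not stated, so it need not be the level in the cells.

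Annotated neighbours touch 23 of the 46 members: 12 overlap another listed gene on the same strand and 15 one on the other strand. On the other strand, IGFBP7 overlaps POLR2B. It had -1.70 (adjusted p = 0.103) and -1.81 (adjusted p = 0.192) in the authors' deposited tables, called in neither. IGSF10, which overlaps MED12L, had 1.59 and 2.07 there, in the authors' deposited tables. Among the 12 are MED12L, MED17 and MED13, the POLR2J copies and POLR2M, which overlaps GCOM1 (-0.91 and, not called, -0.53 in the authors' deposited tables). Without these 12, 8 positive and 16 negative members remained in the authors' deposited ALKBH5 table, and 6 and 14 in the RBM33 one. These counts are out of the 34 members kept, against 15 and 12 positive of all 46. Part of the fall therefore comes from the shorter list. The share of all listed genes with such overlaps was not computed.

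The rest of the transcription machinery also held both signs, and its counts can be read against protein-coding genes, of which the authors' deposited ALKBH5 table had 27.5% positive and 33.3% negative and the RBM33 one 21.5% and 31.2%. Of 18 subunits of polymerases I and III, 3 had a positive and 13 a negative call in the authors' deposited ALKBH5 table (median -0.79), and 2 and 9 in the RBM33 one (median -0.43). POLR1A, the largest polymerase I subunit, had 1.13 and 1.45 and POLR3GL, a small polymerase III subunit, -2.05 and -2.37 in the authors' deposited tables. Of 18 general transcription factor genes, the authors' deposited tables had 3 positive and 12 negative with ALKBH5 (median -0.79), 1 positive and 12 negative with RBM33 (median -0.79). ERCC2, a helicase of TFIIH, had 1.13 and 0.73 and GTF2A2, the small TFIIA subunit, -2.01 and -2.05 in the authors' deposited tables. Of 16 genes of TFIID, the factor that recognises promoters, the authors' deposited tables had 2 positive and 9 negative with ALKBH5, 3 positive and 8 negative with RBM33. TAF1, its largest subunit, had 1.86 (adjusted p = 1.02e-07) and 1.73 (adjusted p = 2.98e-05) and TAF9 -1.60 and -1.57 there, in the authors' deposited tables. Of 25 pausing and elongation factors, the authors' deposited tables had 7 positive and 13 negative with ALKBH5, 8 positive and 10 negative with RBM33. CCNT2, a cyclin of the elongation kinase, had 1.83 and 1.47 and SSRP1, a subunit of the histone chaperone FACT, -1.75 and -1.43 in the authors' deposited tables. Of 9 assembly factors, the authors' deposited tables had 2 positive and 4 negative with ALKBH5, 1 positive and 4 negative with RBM33. GPN3, a GTPase of polymerase assembly, was lowest at -1.86 and -1.84 in the authors' deposited tables, GPN2 had the highest called value for ALKBH5 (0.53, and 0.41 for RBM33) and RPRD2 for RBM33 (0.54, and 0.03 for ALKBH5).

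**Figure D3:**
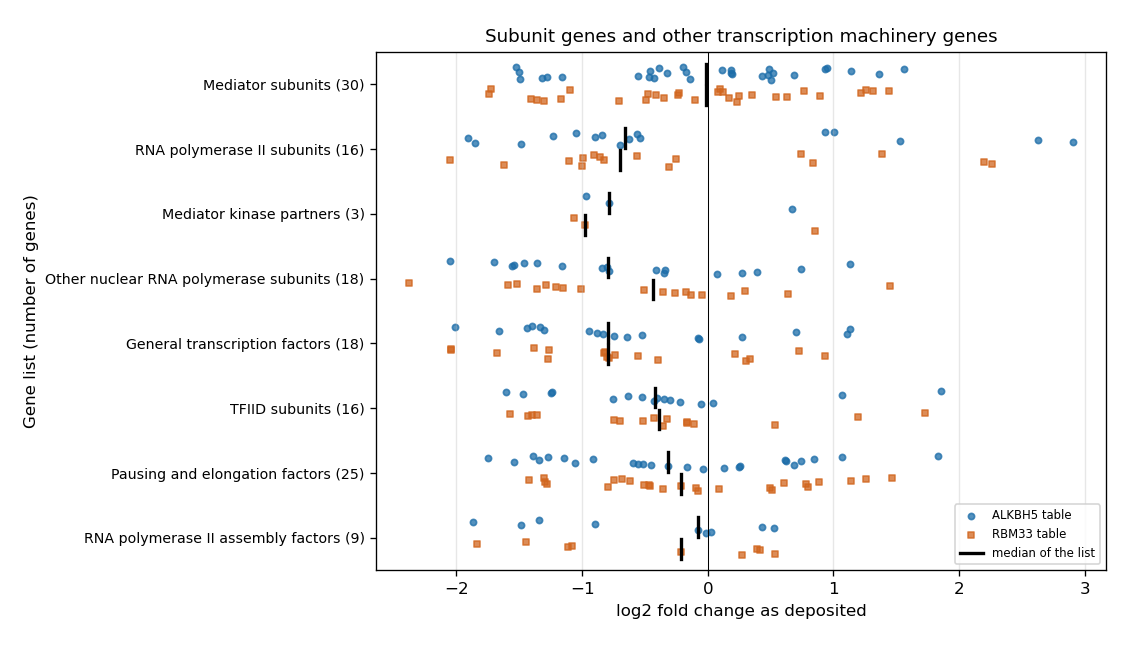
log2 fold change (x axis, as deposited) of the genes of each list (y axis, number of genes in brackets) in the ALKBH5 table (blue circles) and the RBM33 table (orange squares), with black bars at the list medians. Every list has a median below 0 in both tables, with Mediator close to 0 at -0.01. Genes above 1 appear in the Mediator, POLR2, polymerase I and III, TFIID and elongation lists of both tables.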

How the data were processed

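Groups were read from sample titles. Reads were handled with edgeR 3.24.3, featureCounts (Subread 1.6.4), HISAT2 2.1.0 and cutadapt 1.18 on build hg38, according to the submitters' processing notes; the annotation, filter and strand setting were not given in the sources used here. Libraries were stranded total RNA (Takara SMARTER Pico kit), per the labels' protocols. The authors' deposited tables give, per the file headers, 1 row per gene with log2 fold change, log2 of average CPM, the F of the test (a score without fixed range), p-values and listed length. Adjusting the deposited p-values again by Benjamini-Hochberg gave the deposited adjusted values for all 16324 genes. The planned count model over libraries could not be run, so calls are the authors' adjusted p under 0.05.

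Medians, correlations, overlaps and 10 bins of listed length (equal numbers of protein-coding genes) were computed in Python 3.11.15 (pandas 2.3.3, NumPy 2.4.6, SciPy 1.17.1). Only the differences from bin medians and the Benjamini-Hochberg adjustment were tested on simulated data. Members and lists were chosen with earlier results of these data known, so no test of a list was made. Full statistics were given for POLR2A, POLR2B and members called in both tables with at least 1 log2 unit in either; of the other lists, the highest and lowest called gene. No label says whether replicates came from separate cultures, and the deposited p-values may then cover technical spread only.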

Additional observations from a re-analysis of the deposited data

How the results depend on the processing

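Among the members each alternative kept, called ones kept their sign and no call was gained. At an adjusted p under 0.01, 5 calls for ALKBH5 and 2 for RBM33 were lost, and adjusting again over protein-coding genes changed none. Adjusting again over genes of at least median abundance changed no call among the 32 members (ALKBH5) and 37 (RBM33) it kept, and the members below that abundance were not run. Requiring at least 1 log2 unit left 7 positive and 11 negative members for ALKBH5, 7 positive for RBM33, and 14 with the same sign in both tables, against 27 without it. Leaving out members that overlap on the same strand left 34 members, 8 positive for ALKBH5 and 6 for RBM33, with medians of -0.42 and -0.38. The 5 positive polymerase entries fell to 2 in each table there, and also without the POLR2J family. The median for ALKBH5 was -0.0172 with the median of the same length bin subtracted and -0.0433 without members below median abundance. The median for RBM33 was -0.11 with the median of protein-coding genes (-0.13) subtracted, and turned positive, at 0.0276, with that of the length bin. Leaving out the second POLR2J3 entry, an alternative chosen after seeing the data, gave 26 members with the same sign. A shift over 0.1 was counted as a move of a median, since no spread between replicates is known. No paired analysis was possible because the tables hold the authors' comparisons and no values per library, and for the same reason no library was left out, no other normalization was run and depth could not be weighed.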
